A study of Homo sapiens with 2 samples.

Results

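An exon row, as the term is used here, is one line of the exon list on which reads were counted, given by a chromosome, a start, an end and a strand. Some of these rows lie partly or wholly on top of another row of the same strand, so that one stretch of RNA was counted under more than one heading. Rows that overlapped at least 1 other row on the same chromosome and strand by at least 1 base were selected from the coordinates alone, without any read count. They numbered 2586 of 239322 rows (1.08%). They formed 1492 overlapping pairs, and 2290 of the rows belonged to only 1 pair.

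The reads came from Huh-7, a human hepatocellular carcinoma cell line. Cells were kept for 24 h in 0.1% DMSO (the control) or in 0.1 mM BS008, a derivative of the diuretic amiloride, and the study asked which transcripts change their alternative splicing under BS008. There was 1 library for each condition, made from total RNA with an mRNA sequencing kit, so the spread between cultures is unknown, no test between conditions was possible, and every difference given below is a difference between these 2 libraries. The control's treatment text in the deposited labels also mentions BS008, and the assignment followed its own treatment entry, which gives DMSO. The files hold raw read counts and RPKM, which is the count scaled to the length of the row and to the total of the library. The coordinates are those of the files, on build hg19 according to the submitters' processing notes. The files name no genes, and no annotation or genome of that build was used, so rows are identified by position and no gene symbol or sequence is given.

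An exon can have more than one boundary because the spliceosome can choose between alternative splice sites. A second 5′ splice site moves the end of the exon that leaves for the next intron, and a second 3′ splice site moves the end that receives the preceding intron. First exons can also start at different promoters, last exons can end at different polyadenylation sites, and an intron that stays in the transcript joins its neighbouring exons into one long exon. Small RNA genes, such as those of small nucleolar RNAs, often lie in introns of other genes, and such an intron, when listed as retained, encloses them. These are general reasons for an annotation to list exons on top of each other, and which of them applies to a given row was not tested.

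The 1492 pairs fell into 4 geometric types. The rows of 458 pairs (30.7%) had the same start coordinate and those of 459 pairs (30.8%) the same end coordinate. In 387 pairs (25.9%) a row lay inside the other without touching its edges, and in 188 pairs (12.6%) each row reached past the other. No pair had both edges in common. The pairs linked into 1141 groups, of which 932 held 2 rows, 152 held 3 and 41 held 4. The remaining groups held 5 rows (9 groups), 6 (2 groups), 7 (3 groups), 8 (1 group) or 16 (1 group).

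Overlapping rows were longer than the rest, with a median of 210 bases against 138 bases for rows that overlap no other of the same strand. They ranged from 2 to 8790 bases. In pairs with a common start, the shorter row had a median of 127 bases and the longer row 444.5 bases. The corresponding medians were 126 and 370 bases for a common end. The contrast was greatest for the enclosed type, with 110 bases inside 1075 bases. Partially overlapping rows had 131 bases in common in the median, with a range of 1 to 2598.

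Reading start and end in the direction of transcription separated the 2 sides of the exon. Of the 917 pairs with a common edge, 470 had the same 5′ edge, so that the 3′ edge varied, and 447 had the same 3′ edge. The difference in length was a median of 358 bases when the 3′ edge varied and of 141 bases when the 5′ edge varied. Differences above 1000 bases were listed for 115 pairs with a variable 3′ edge and 57 with a variable 5′ edge. The longer extensions were therefore more often on the 3′ side.

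Short differences were distributed differently. Of the 120 pairs whose rows differed by 12 bases or less, 72 had a variable 5′ edge and 48 a variable 3′ edge. A difference of exactly 3 bases was listed for 20 pairs on 13 chromosomes, and in all 20 it was the 5′ edge of the exon that moved. A step of 3 bases at this edge has the geometry of a tandem 3′ splice site, where the intron can end at either of a pair of adjacent AG dinucleotides. The bases themselves were not read here. A difference of 4 bases was listed for 15 pairs, of which 11 had a variable 3′ edge, and a difference of 9 bases for 13 pairs, of which 9 did. Differences that were a multiple of 3, which leave the reading frame unshifted where the row is coding, made up 329 of the 917 pairs (35.9%, 95% Wilson interval 32.8 to 39.0%). Of whole numbers 1 in 3 is a multiple of 3, a share that lies inside this interval. Among differences of 12 bases or less, multiples of 3 made up 50 of 120 (41.7%). The 20 pairs that differ by exactly 3 bases are among these 50.

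**Figure D1:**
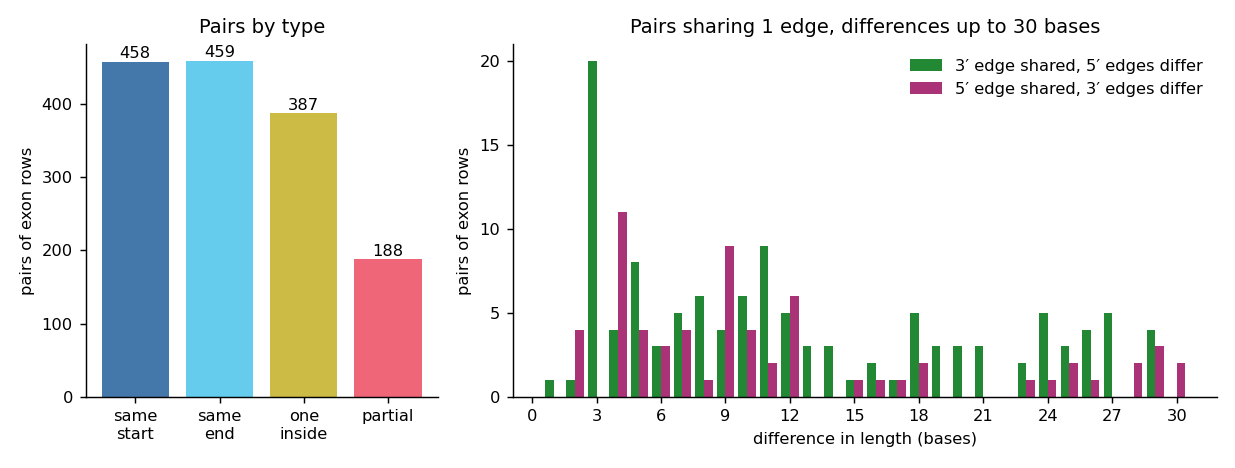
Left, number of overlapping pairs of each type. Right, number of pairs with a common edge (y axis) against the difference in length of the 2 rows in bases (x axis, up to 30), by whether the 5′ edge or the 3′ edge is common in the direction of transcription. The bar at 3 bases holds 20 pairs, all with a common 3′ edge, and the bar at 4 bases holds 11 pairs with a common 5′ edge and 4 with a common 3′ edge.

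For the pairs 3 bases apart, the reads could hardly tell the boundaries apart. Reads were found on both rows in both libraries in 11 of the 20 pairs, and the best covered pair had 533 reads in the control and 311 with BS008. At most 5 reads in the control and 3 with BS008 were counted on the longer row and not on the shorter. Counts above 0 were the same on both rows in 8 pairs in the control and 9 with BS008. A shift between such boundaries was not detectable in these counts, which give the reads counted on a row and not where they are spliced.

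The 387 enclosed pairs held 379 different enclosed rows, since some lay inside more than 1 row. Of these, 155 were 60 to 150 bases long, and 37 were shorter than 20 bases. The median was 111 bases, and the middle 50% ran from 60 to 204.5. The shortest had 2 bases and the longest 2515.

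The overlapping rows were spread over 24 chromosomes, and none was mitochondrial. Chromosome 14 had the highest share, with 240 of its 10890 rows (2.20%), followed by the Y chromosome with 17 of 810 (2.10%) and chromosome 22 with 105 of 5525 (1.90%). Chromosome 12 had the lowest share among chromosomes with any, 72 of 12816 (0.562%). The high share of chromosome 14 came mainly from 2 windows of 1 Mb. Between 22 and 23 Mb there were 79 overlapping rows, and no read was counted on any of them in either library. Between 106 and 107 Mb there were 72, of which 2 had reads in the control and 5 with BS008, and no row had more than 1 and 4 reads, respectively. The 35 overlapping rows between 142 and 143 Mb of chromosome 7 were without reads as well. By contrast, all 25 overlapping rows between 21 and 22 Mb of chromosome 16 had reads in both libraries, up to 2917 in the control and 2596 with BS008.

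The libraries held 55476654 (control) and 53578432 (BS008) counted reads in all, and overlapping rows took 444489 (0.801%) and 502505 (0.938%) of them. A read in a stretch that belongs to 2 rows entered this sum under both. At least 1 read was counted on 1593 overlapping rows in the control (61.6%, 95% Wilson interval 59.7 to 63.5%) and on 1655 with BS008 (64.0%, 62.1 to 65.8%). The rows that overlap no other of the same strand were detected a little more often, at 65.8% and 66.9%. Some of them overlap a row of the opposite strand, since 7802 rows overlap another on either strand. Of the overlapping rows, 1505 had reads in both libraries, 88 in the control alone, 150 with BS008 alone and 843 in neither. This split was not computed over all rows, so it is not a trait of the overlapping ones. Over all rows detection was also higher with BS008, at 66.9% against 65.7% in the control. A row without a read can hold up to 5.41e-06% of the control's reads and 5.599e-06% of those with BS008, which is 3 counts of the total. The intervals treat rows as independent, although rows of a group share reads, and the limits cover the counting of reads only. Neither covers the spread between cultures.

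Per length, the overlapping rows were the weaker set. Among the 1310 with at least 10 counts in either library (50.7% of them), the median RPKM was 3.63 in the control and 4.34 with BS008. For the other rows that passed the same minimum, 54.9% of theirs, the medians were 9.63 and 9.39. The middle 50% of the overlapping rows ran from 1.22 to 13.8 RPKM in the control and from 1.71 to 15.3 RPKM with BS008.

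The counts of each pair showed how the reads of the common stretch were treated. In all 825 enclosing pairs with reads in the control, and all 858 with BS008, the longer row had at least as many reads as the shorter, and both had exactly the same number in 137 pairs of each library. Partial overlaps do not force such an order, and there the longer row had fewer reads in 25 of 115 pairs in the control and 25 of 127 with BS008. The count of an enclosing row was thus never below that of the row within it. Values of the 2 rows of a pair were therefore read as nested quantities and not as independent ones. The difference of their counts is what fell outside the shorter row. The quotient is the share of the longer row's reads that touched the shorter. The counting rule is not known, and a read is said here to touch a row when it was counted on it. The files also list 12 places on both strands at once, 5 of them with reads, and the counts on both strands were equal in both libraries. Reads of opposite strands can thus not be told apart.

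**Figure D2:**
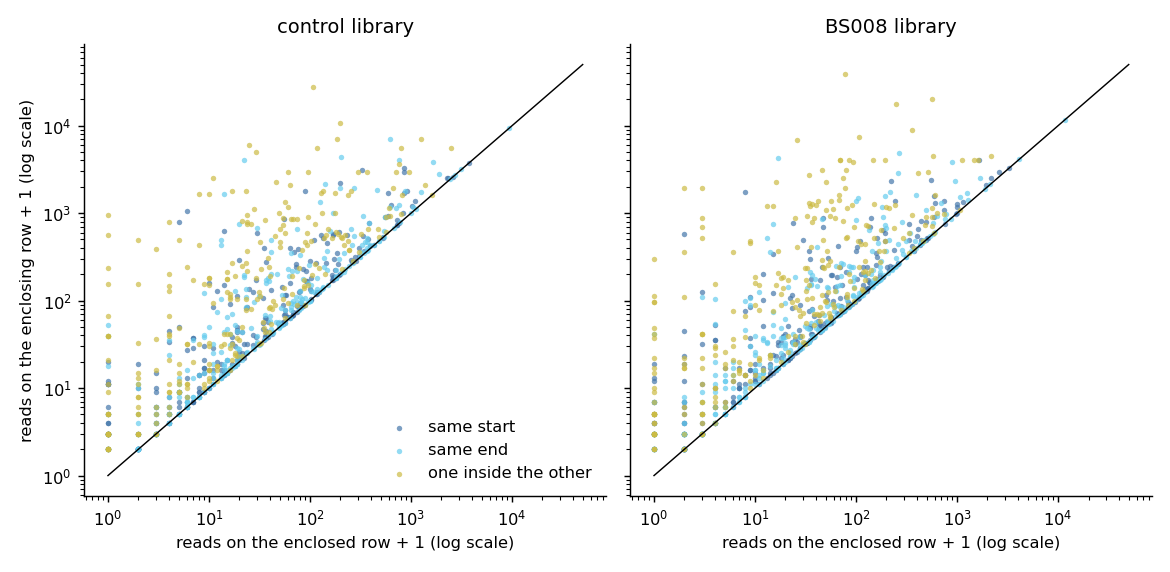
Counts plus 1 of the enclosing row (y axis, log scale) against counts plus 1 of the row inside it (x axis, log scale). There is 1 point for each enclosing pair with reads, for the control and for BS008. No point lies below the diagonal of equal counts in either library.

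The way reads lay inside the longer row depended on the type of pair. Among pairs with at least 20 reads on the longer row, the shorter row took a median of 70.9% of those reads in the control and 72.3% with BS008 when the start was common, although it made up 31.6 and 32.4% of the length. With a common end the shares were 68.8 and 69.5% of reads for 28.5 and 30% of length. Rows that lay inside took 15.9 and 17.9% of the reads for 7.77 and 8.71% of the length. In the median of each type, the shorter row thus held a larger part of the reads than of the length. Single pairs departed from this. Among rows lying inside another, the shorter was the denser in 135 of 193 pairs in the control and 140 of 202 with BS008. If a read was counted on every row that it overlaps, a short row also takes reads that lie mostly outside it. How much of the difference this makes was not tested.

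The pairs with the most reads show single loci, some of which depart from these medians. On chromosome 17, the rows chr17:49237341-49237963 and chr17:49237341-49237442 (plus strand, common start) had 3720 and 3711 reads in the control and 3319 and 3275 with BS008. Only 9 reads in the control and 44 with BS008 thus fell outside the shorter row of 102 bases, although the longer row has 623. A few kilobases downstream, chr17:49244083-49244317 and chr17:49244188-49244317 (common end) had 9295 and 9279 reads in the control, and 11591 and 11574 with BS008. The extension of this second pair held 16 and 17 reads. In both pairs nearly all reads touched the stretch that both rows cover, in both libraries. Such reads alone do not tell which boundary was used, but few reads lay on the stretch that only the longer row covers.

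Other pairs with a common edge had reads on the extension. The rows chr17:6917464-6918475 and chr17:6917464-6917851 (plus strand) had 2540 and 2321 reads in the control and 2991 and 2585 with BS008, so that the reads outside the shorter row went from 219 to 406. On chromosome 16, chr16:28732576-28734644 and chr16:28734485-28734644 (plus strand, common end) had 3215 and 3125 reads in the control, and 4154 and 4095 with BS008. The shorter row's part was 97.2% (95% Wilson interval 96.6 to 97.7%) and 98.6% (98.2 to 98.9%) of the longer row's reads.

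A well covered pair more than 2-fold lower with BS008 was chr20:34236888-34243266 and chr20:34243124-34243266 (minus strand, common end). The 6379-base row had 7051 reads in the control and 2902 with BS008, and the 143-base row within it had 622 and 257. The log2 ratios, BS008 over control, were -1.22 and -1.14. Both rows fell by a similar factor, and the shorter row's part of the reads was 8.82% (8.18 to 9.51%) in the control and 8.86% (7.88 to 9.94%) with BS008.

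In the 3 pairs with the most reads where a row lies inside the other, nearly all reads of the enclosing row lay outside the enclosed one. Per length, each enclosed row was below its enclosing row in both libraries, unlike in most pairs of this type. The row chr5:180668492-180669345 (minus strand, 854 bases) had 27996 reads in the control and 39273 with BS008, while the 72-base row at chr5:180668818-180668889 within it had 106 and 77. On the X chromosome, chrX:153628144-153630680 (plus strand) had 10810 and 17623 reads, and the 135-base row chrX:153628622-153628756 within it had 196 and 249. On chromosome 3, chr3:186505284-186507683 (plus strand, 2400 bases) had 7125 reads in the control and 20197 with BS008, and the 137-base row chr3:186505402-186505538 had 182 and 570. In the last of these both rows were about 3-fold higher (log2 ratios 1.55 and 1.56), while on chromosome 5 the enclosing row was higher with BS008 (0.54) and the enclosed row lower (-0.32).

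In the 3 partially overlapping pairs with the most reads, the log2 ratios stayed between -0.36 and 0.12. On chromosome 22 the rows chr22:24237099-24238297 and chr22:24236613-24237719 (minus strand, 621 bases in common) had 4015 and 8072 reads in the control and 4229 and 8318 with BS008. On chromosome 16 the rows chr16:29494953-29496565 and chr16:29496440-29497180 (plus strand, 126 bases in common) had 5558 and 1760 reads in the control, and 4552 and 1317 with BS008. Also on chromosome 16, chr16:21413553-21414158 and chr16:21413548-21414032 (plus strand, 480 bases in common) had 2917 and 2576 reads in the control, and 2596 and 2317 with BS008.

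To compare the libraries, counts were scaled to the library total as CPM, and BS008 was divided by control on a log2 scale after adding 0.5 CPM to both, in rows with at least 10 counts in either library. On this scale, 117 of the 1310 overlapping rows (8.93%) were at least 2-fold higher with BS008, against 3.73% of all rows that passed the minimum. At least 2-fold lower were 37 (2.82%), against 3.79% of all rows. Their median log2 ratio was 0.12, that of all rows was -0.04, and 776 of them (59.2%) were above 0, against 46.8% of all rows. Rows of a group share reads and are not independent. When only the longest row of each group was kept, an alternative chosen after seeing the data, 63 of 631 (9.98%) were higher and 18 (2.85%) lower.

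The higher rows were not gathered at a few places. Of the 633 groups with a row that passed the minimum, 76 held a row at least 2-fold higher and 22 a row at least 2-fold lower, and 0 held both. The former lay on 20 chromosomes and the latter on 14. A group was counted when any of its rows passed, so these counts cannot be set beside the 3.73 and 3.79% of single rows. That 0 groups held both directions is no separate result, since their rows share reads. Chromosomes 1 and 16 had the most higher rows, 14 of 113 and 14 of 132, followed by chromosome 17 with 12 (11.9%) and chromosome 3 with 11 of 67. By share, chromosomes 3 (16.4%) and 10 (6 of 38, 15.8%) were ahead, beside 3.73% of all rows. Rows of a group share reads, and these higher rows lay in 6 and 3 groups. Those of chromosomes 1, 16 and 17 lay in 10, 8 and 7 groups. The share over all rows of each chromosome was not computed. On chromosome 18, 2 of 15 rows were higher and 5 lower, and 4 of these 5 belonged to 1 group of nested rows that share reads.

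All 4 types of pair had a larger share of higher rows than the 3.73% of all rows. Rows in pairs with a common start were at least 2-fold higher in 29 and lower in 8 of 439, and those with a common end in 36 and 17 of 457. Rows in enclosed pairs were higher in 37 and lower in 12 of 357 (10.4 and 3.36%), and rows in partial overlaps in 23 and 4 of 180 (12.8 and 2.22%). By position in the pair, 54 of 567 enclosing rows (9.52%) and 43 of 593 enclosed rows (7.25%) were higher. Whether these shares differ between types beyond the spread between cultures cannot be told from 1 library for each condition.

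**Figure D3:**
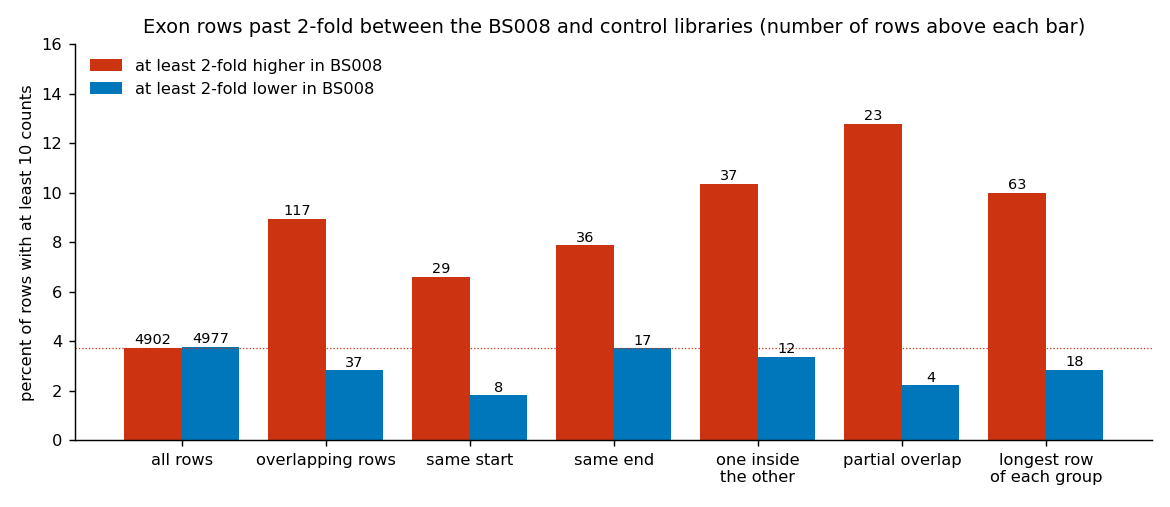
Percent of rows that differ by 2-fold or more in either direction with BS008 (y axis) for all rows and for overlapping rows by type of pair. Rows in partial overlaps reach 12.8% higher, against 3.73% of all rows, while the lower rows stay at or below the 3.79% of all rows in every type.

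Length and depth also moved with these calls. Among rows that overlap no other of the same strand, the share called higher went from 2.04% below 100 bases to 8.81% from 1000 bases. These are the shortest and longest classes, and overlapping rows are longer. Within length classes, overlapping rows were called higher in 6.67% against 2.04% below 100 bases, 6.59% against 2.64% from 100 to below 200 bases, and 10.2% against 4.83% from 200 to below 500 bases. The gap was narrower for long rows, with 11.5% against 6.86% from 500 to below 1000 bases and 10.4% against 8.81% above. By depth of the better covered library, the shares were 1.29% against 0.801% at 10 to below 50 counts, 14.2% against 4.25% at 50 to below 200 counts and 11.98% against 5.597% at 200 counts or more. The overlapping rows had the larger share in each of these classes, by a small margin in some. At 10 to below 50 counts 6 of 464 overlapping rows were higher, and from 1000 bases 30 of 289, and rows of a group share reads.

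The largest ratios were taken among the 621 overlapping rows whose better covered library had 100 counts or more. On this scale the largest increase was on chromosome 6, where chr6:26199013-26199471 (minus strand, 459 bases) had 32 reads in the control and 590 with BS008. The row chr6:26199087-26199464 inside it had 32 and 588, so almost all reads of the longer row touched the shorter. The log2 ratios were 3.42 and 3.41. Without a pseudocount the longer row's log2 ratio was 4.25, with a counting interval of 3.74 to 4.77.

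The next increases included a partial overlap and a common end. On chromosome 1 (plus strand), chr1:161493768-161496685 (2918 bases) had 32 reads in the control and 472 with BS008 (log2 ratio 3.11), while the 723-base row chr1:161493080-161493802, which overlaps its start, had 0 in both. On chromosome 16 (plus strand), chr16:56669675-56670416 (742 bases) had 8 and 212 reads (2.79), and the row chr16:56670351-56670416 at its end had 8 and 170. This row is ahead of the one on chromosome 6 with a pseudocount of 0.1 CPM (4.05 against 4.04) or none (4.78, counting interval 3.78 to 5.78), so that the order of the largest increases depends on the pseudocount. All reads of the control touched the last 66 bases, and the partly overlapping row chr16:56669651-56669757 upstream had 0 in the control and 64 with BS008.

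In another locus only the enclosed row had a large ratio. The 67-base row chr15:66793590-66793656 (minus strand) had 24 reads in the control and 354 with BS008 (log2 ratio 2.93), whereas the 556-base row chr15:66793287-66793842 around it had 6043 and 8996 (0.62). The RPKM of the short row went from 6.46 to 98.6 and that of the long row from 196 to 302. Even with BS008, the short row therefore stayed below the long row per length.

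The largest decrease was that of chr16:30208295-30208422 (plus strand, 128 bases), with 337 reads in the control and 34 with BS008 (log2 ratio -2.53), together with the 1312-base row chr16:30207111-30208422 of the same end, with 925 and 214 (-1.93). These values are uncertain, because a 128-base row in a locus of the same layout, chr16:29468953-29469080, went from 74 to 261, and both 128-base rows together had 411 reads in the control and 295 with BS008. On chromosome 18 (minus strand), chr18:6925477-6927583 (2107 bases) had 1782 and 366 reads (-2.15), and the 928-base row chr18:6926656-6927583 had 864 and 196 (-1.95). This group holds 3 more rows, with 88 and 33 reads for chr18:6925477-6925717, 134 and 16 for chr18:6926071-6926224, and 251 and 51 for chr18:6926439-6926557. All 5 rows of the chromosome 18 group were lower with BS008, with log2 ratios from -0.90 to -2.15.

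In the last of the largest decreases the long and short rows parted. The 3373-base row chr17:7345913-7349285 (plus strand) had 153 reads in the control and 21 with BS008 (-1.87). The 3 rows of 99, 140 and 93 bases inside it had 0, 1 and 8 reads in the control and 1, 2 and 10 with BS008. The decrease therefore came from reads outside the 3 enclosed rows.

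The balance inside a pair was followed by the shorter row's percent of the summed reads of both rows, in 673 pairs with at least 20 summed reads in each library. This share moved by at least 10 percentage points in 49 pairs (7.28%), up in 26 and down in 23. Among adjacent rows of the same strand within 10 kb that do not overlap, 10.6% moved by this amount. The median absolute change was 1.48 points for overlapping and 2.85 points for adjacent pairs. Because rows that share reads move together and the share of an enclosed row cannot exceed 50%, these percentages are not on an equal footing. By type, 12 of 193 pairs with a common start, 13 of 201 with a common end, 14 of 200 enclosed pairs and 10 of 79 partial overlaps (12.7%) moved.

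The share of the longer row's reads that touched the enclosed row had no common direction. In 535 enclosing pairs with at least 20 reads on the longer row in each library, its median was 49.4% in the control and 48.6% with BS008. It was higher with BS008 in 251 pairs, lower in 241 and equal in 43. A rise of at least 10 points was found in 48 and a fall in 43, and 90% of the changes lay between -13.4 and 14.9 points.

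**Figure D4:**
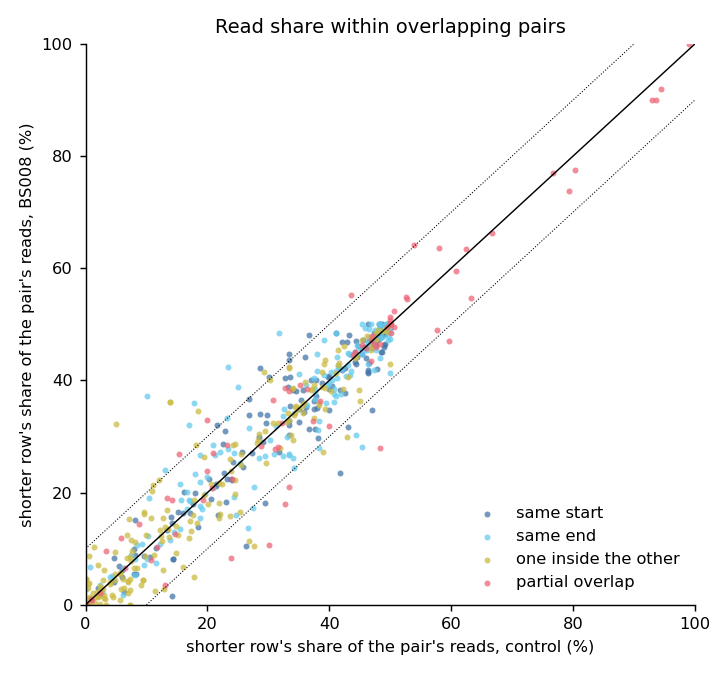
The shorter row's percent of the summed reads of its pair with BS008 (y axis) against the control (x axis), with 1 point for each of the 673 pairs with at least 20 summed reads in each library, by type of pair. Points off the diagonal by 10 points or more are the 49 pairs counted as moved, of which 26 lie above and 23 below.

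Enclosed rows of 60 to 150 bases, a class chosen after the values had been seen, had a lower ratio than the row around them in more pairs than a higher one. In this class 94 pairs, on 74 enclosing rows, had at least 20 reads on the enclosing row in each library. Their median log2 ratio was 0.05 for the enclosed and 0.32 for the enclosing row. The enclosed row had the lower ratio in 62 of the 94. The added 0.5 CPM draws rows with few reads towards 0, and by the enclosed row's percent of the enclosing row's reads, which needs no pseudocount, 54 were lower with BS008, 38 higher and 2 equal. In 23 pairs the enclosing row was above 0 and the enclosed row below, and in 9 the reverse. With each row counted once, 11 of the 74 enclosing rows were 2-fold or more above the control and 3 below it. Of the 78 enclosed rows with at least 10 counts, 5 were above and 3 below by this amount, beside 3.73 and 3.79% of all rows. The percents of all rows rest on 10 counts in either library alone, so the filters are not alike. For enclosed rows under 60 bases the lower ratio was found in 12 of 28 pairs, and above 150 bases in 32 of 67, and the lower percent in 12 and 28 of them.

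The loci with the largest moves were taken from the 450 pairs with at least 100 summed reads in each library. The largest falls included 2 short rows enclosed by a row that rose. On chromosome 1 (minus strand), the 269-base row chr1:173835666-173835934 went from 528 to 1279 reads, while the 81-base row chr1:173835773-173835853 inside it went from 201 to 149. The enclosed part was 38.1% (34.03 to 42.3%) of the reads in the control and 11.6% (10.01 to 13.5%) with BS008. On chromosome 11 (minus strand), the 264-base row chr11:62621273-62621536 went from 383 to 1113, and the 65-base row chr11:62621376-62621440 inside it from 83 to 58. The enclosed part was 21.7% (17.8 to 26.1%) and 5.21% (4.05 to 6.68%), so that in both loci the added reads lay outside the enclosed row.

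Enclosed rows also gained. On chromosome 1 (plus strand), the 83-base row chr1:2113271-2113353 had 15 of the 109 reads of chr1:2112575-2114663 in the control and 24 of 84 with BS008. On chromosome 17 (minus strand), the 437-base row chr17:76103485-76103921 had 42 of the 97 reads of chr17:76103480-76105056 in the control and 94 of 140 with BS008. The part went from 13.8% (8.52 to 21.5%) to 28.6% (20.0 to 39.0%) in the first and from 43.3% (33.9 to 53.2%) to 67.1% (58.996 to 74.4%) in the second. The intervals of the first pair overlap and those of the second do not.

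Other moves were found at common ends and in a partial overlap. On chromosome 1 (minus strand), the 121-base row chr1:1602948-1603068 had 82 of the 103 reads of chr1:1601879-1603068 in the control, but 64 of 147 with BS008. Its part fell from 79.6% (70.8 to 86.3%) to 43.5% (35.8 to 51.6%). On chromosome 17 (minus strand), chr17:56066405-56067157 had 338 and 327 reads, while the row chr17:56066403-56066627, which extends 2 bases past it, had 61 and 120. The longer row kept its level there and the shorter row was higher with BS008.

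A pair of loci on chromosome 16 (plus strand) had the same layout, a 1312-base row with a 128-base row at its end, and opposite changes. At chr16:29467769-29469080 the long row had 661 reads in the control and 441 with BS008, and the short row chr16:29468953-29469080 had 74 and 261. At chr16:30207111-30208422 the long row had 925 and 214, and the short row chr16:30208295-30208422, given above, had 337 and 34. The short row's part of the reads rose from 11.2% (9.01 to 13.8%) to 59.2% (54.5 to 63.7%) in the first locus and fell from 36.4% (33.4 to 39.6%) to 15.9% (11.6 to 21.4%) in the second. Outside the short rows, however, the loci were almost equal, with 587 and 588 reads in the control and 180 and 180 with BS008. Summed over both loci, the long rows had 1586 reads in the control and 655 with BS008. The values of such look-alike loci are uncertain one by one, and whether the same reads were counted at both was not tested. Of the 1413 pairs whose longer row has at least 100 bases, 72 (5.10%) had the type, both lengths and the overlap in common with another pair, in 32 sets.

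The group with the most rows among those with reads was on chromosome 11 (minus strand), where the 3605-base row chr11:93465410-93469014 covers 7 shorter rows. It had 2958 reads in the control and 4060 with BS008 (log2 ratio 0.50). The rows inside it differed from each other. The 36-base row chr11:93467791-93467826 had 369 and 1107 reads (1.57), and the 35-base row chr11:93466253-93466287 had 716 and 1456 (1.05). The 70-base row chr11:93465410-93465479, at the 3′ end of the long row, had 860 and 1634 (0.95), and its part of the long row's reads went from 29.1% (27.5 to 30.7%) to 40.2% (38.7 to 41.8%). These 3 rows are the shortest of the group and had the most reads per length, a measure that reads lying mostly outside a short row may raise.

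The other rows inside that group moved in both directions. The 132-base row chr11:93466632-93466763 had 297 and 147 reads (-0.85), although it has 40 bases in common with the 156-base row chr11:93466516-93466671, which had 944 and 1613 (0.81). The 126-base row chr11:93468277-93468402 had 95 and 69 (-0.31), and the 73-base row chr11:93466394-93466466 had 60 and 68 (0.16). Of the 7 enclosed rows, 5 thus had a ratio above 0 and 2 below, and this locus alone supplied 1 of the 5 largest rises and 1 of the 5 largest falls in share.

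**Figure D5:**
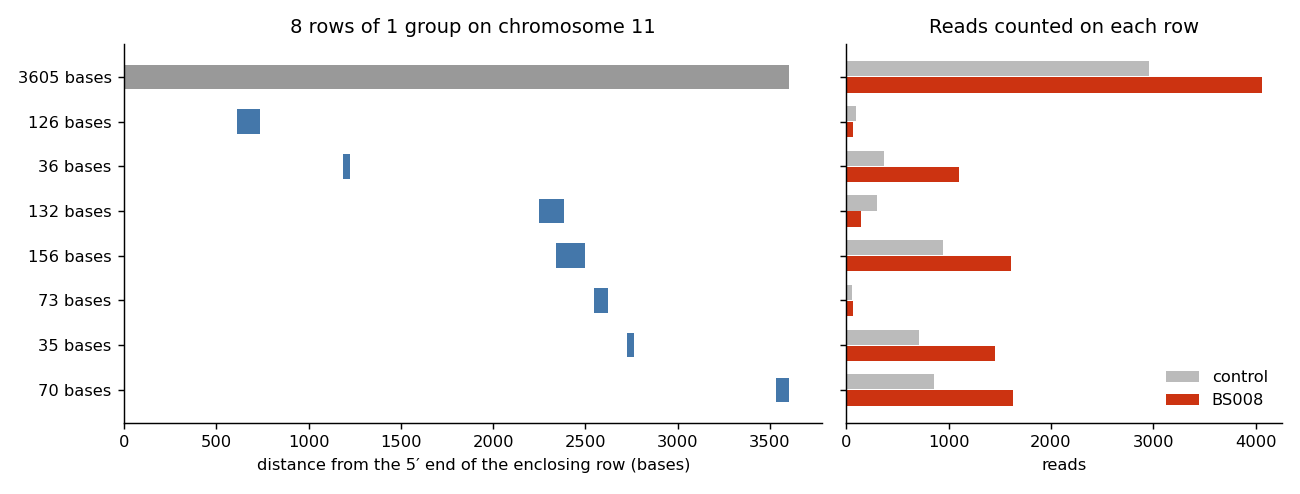
Left, the 8 rows of the overlapping group on chromosome 11, drawn to scale by distance in bases from the upstream end of the long row in the direction of transcription. Right, their counts in the control and with BS008 (linear scale). The rows of 36, 35, 70 and 156 bases have higher counts with BS008 and the rows of 132 and 126 bases have lower ones.

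The other groups with the most rows lay on the minus strand of chromosome 2 and had almost no reads. The group of 16 rows, from 89161396 to 89161595, consisted of a 198-base row and 15 rows of 2 to 44 bases, and no read was counted on any of them in either library. A group of 7 rows, from 89156676 to 89160448, had 0 reads in the control and at most 2 with BS008, on 3 of its rows. Nothing about the effect of BS008 could be read from these 23 rows.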

How the data were processed

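The authors deposited raw read counts for each exon row in 1 DMSO control and 1 BS008 library, and the authors also deposited RPKM values, which recomputation from the counts returned with a largest relative deviation of 1.8e-07. The aligner, the counting tool and the annotation were not given in the sources used here. Coordinates were read as 1-based with both ends included. Log2 ratios of CPM used a pseudocount of 0.5 CPM, at least 10 counts in either library and a threshold of 2-fold. With 1 library for each condition no test was run. Wilson 95% intervals cover counting error only. They treat reads as independent.

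Pairs named are the 3 with the most reads of each type and the 5 with the largest rise and fall in share (at least 100 summed reads in each library). Rows named are the 5 with the largest and the 5 with the smallest log2 ratio (at least 100 counts), and groups named are the 3 with the most rows, ties taken in order of position. A planned list of splicing and apoptosis genes could not be applied without gene names. Members and rules were chosen with earlier results of these data known. Scripts used Python 3.11.15, pandas 2.3.3 and scipy 1.17.1, and TMM factors came from edgeR 4.0.16 in R 4.3.3. The computations were tested on simulated data.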

Additional observations from a re-analysis of the deposited data

How the results depend on the processing

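With 1 library for each condition, no replicate could be left out. No paired analysis was possible because each condition has a single library. The number of overlapping rows higher and lower with BS008, 117 and 37, was 239 and 87 with a pseudocount of 0.1 CPM, 76 and 26 with 1 CPM, 267 and 118 at 1.5-fold, 222 and 71 on RPKM, and 63 and 18 with the longest row of each group (chosen after seeing the data). It stayed between 111 and 134 higher and 35 and 42 lower under the other count minimums and normalizations and with an overlap of 10 bases. In each of these settings the percent higher was above that of all rows, as with 5.80% against 2.30% at 1 CPM.

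Overlaps on either strand would give 7802 rows. Detection at 3 reads was 55.5% in the control and 56.9% with BS008, and at 10 reads 45.9% and 48.3%. The 49 of 673 pairs with a moved share became 134 at 5 points and 5 at 20 points. These were 19.9 and 0.743%, against 30.1 and 1.95% of adjacent pairs. With 50 summed reads 27 of 529 pairs moved, and with 100 summed reads 15 of 450. These were 5.10 and 3.33%, against 7.07 and 4.80% of adjacent pairs. When each row belongs to no other pair 18 of 431 moved (4.18%, against 10.6%), and on RPKM 106 of 673. As a percent of the enclosing row's reads (chosen after seeing the data), 91 of 535 pairs moved. For RPKM and for this percent, adjacent pairs were not computed. The median RPKM of 3.63 and 4.34 was 0.399 and 0.518 without a minimum, and 8.18 and 9.43 with 50 counts. Of 82 settings tried on single named rows and pairs, 62 moved the value little, 20 moved it more and 0 reversed it.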
